A study of Mus musculus with 6 samples.

Results

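The major histocompatibility complex (MHC) genes and the genes that load peptides onto MHC molecules were described in mouse haematopoietic stem cells before and after induction of ETV6-RUNX1, a fusion protein known from childhood leukaemia of early B cells. The genes were all protein-coding genes of the table whose symbol starts with H2-, together with B2m, Tap1, Tap2, Tapbp, Psmb8, Psmb9, Psmb10, Cd74, Ciita, Nlrc5, Erap1 and Calr. This gave 46 genes of 55471 in the table, namely 34 of the class I pathway, 11 of the class II pathway, and H2-Ke6, which is named for its place in the H2 region and encodes a metabolic enzyme. The rule goes by gene symbol. All 6 libraries carried the ETV6-RUNX1 genotype. The 3 uninduced libraries came from mice without doxycycline and the 3 induced libraries from mice given doxycycline in their food for 2 weeks. The sort gate in each group was Lin-, Kit+, Sca1+, CD48- and CD150+. Mice that lacked the fusion and received the drug were not analysed here, and the fusion and the drug cannot be told apart. The age of the mice, the strain with its H2 haplotype, the promoter that drives the fusion and any pooling of animals are not given in the sources used here. Nothing in the labels says that the replicates came from separate mice, and the p-values measure the spread between these libraries, which may be technical. Values are TPM, a length-corrected share of all RNA in a library, as the authors deposited them. Their sequencing depth is unknown.

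MHC class I molecules are built from a polymorphic heavy chain and the invariant light chain beta-2 microglobulin, encoded by B2m, and are present on nearly all nucleated cells. They show CD8 T cells peptides that the proteasome cuts in the cytosol, that the Tap1-Tap2 transporter carries into the endoplasmic reticulum, that Erap1 trims, and that tapasin (Tapbp) and calreticulin (Calr) help to load. MHC class II molecules are alpha-beta pairs, found mainly on B cells, dendritic cells and macrophages, which show peptides from endosomes to CD4 T cells with the help of the invariant chain Cd74 and the exchange factor H2-DM. Nlrc5 is the transactivator of class I genes and Ciita that of class II genes, and both act at promoters through a shared set of DNA-bound factors. Haematopoietic stem cells are known to carry MHC molecules on their surface.

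The promoters of the genes discussed most often below are shown first, because class I and class II genes are regulated through short shared elements just before the start of transcription. The sequences are from RefSeq (GRCm38.p6), whose table held a window for 39 of the 46 genes, reaching from 250 bases before to 50 bases after the start. The stretch printed is the 200 bases before the start, 5′ to 3′ on the strand of the gene. Capitals mark GGGGATTCC (a site of the NF-kB type) and GAAANNGAA (a form of the core of an interferon response element) on either strand. TGACG (as in the X2 box) and ATTGG (the inverted CCAAT of the Y box) are marked on the strand of the gene. The windows are chr17:34000334-34000533 on the minus strand for H2-K1, chr17:35262894-35263093 on the plus strand for H2-D1, chr17:35438955-35439154 on the plus strand for H2-Q7, chr2:122147487-122147686 on the plus strand for B2m, chr17:34187356-34187555 on the plus strand for Tap1 and chr17:34287824-34288023 on the minus strand for H2-Aa. For H2-K1 the table has 2 starts, 14 bases apart, and the downstream start was used.
H2-K1: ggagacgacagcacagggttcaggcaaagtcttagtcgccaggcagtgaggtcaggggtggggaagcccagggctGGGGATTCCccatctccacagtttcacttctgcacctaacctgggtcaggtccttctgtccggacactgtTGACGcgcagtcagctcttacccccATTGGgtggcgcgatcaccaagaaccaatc
H2-D1: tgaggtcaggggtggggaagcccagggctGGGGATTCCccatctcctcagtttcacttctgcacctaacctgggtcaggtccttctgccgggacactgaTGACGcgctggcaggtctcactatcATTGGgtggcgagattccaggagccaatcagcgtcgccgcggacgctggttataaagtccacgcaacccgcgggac
H2-Q7: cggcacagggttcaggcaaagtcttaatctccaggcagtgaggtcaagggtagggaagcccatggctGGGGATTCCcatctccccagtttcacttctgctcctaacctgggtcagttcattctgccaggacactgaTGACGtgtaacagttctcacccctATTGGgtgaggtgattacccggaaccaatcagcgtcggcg
B2m: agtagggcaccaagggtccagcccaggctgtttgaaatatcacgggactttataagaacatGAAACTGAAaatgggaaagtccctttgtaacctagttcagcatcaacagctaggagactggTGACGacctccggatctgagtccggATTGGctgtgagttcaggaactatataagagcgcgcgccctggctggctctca
Tap1: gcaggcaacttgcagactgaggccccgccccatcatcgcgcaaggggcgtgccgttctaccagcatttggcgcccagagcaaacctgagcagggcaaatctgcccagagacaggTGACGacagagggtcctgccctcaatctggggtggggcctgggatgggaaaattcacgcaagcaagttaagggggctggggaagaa
H2-Aa: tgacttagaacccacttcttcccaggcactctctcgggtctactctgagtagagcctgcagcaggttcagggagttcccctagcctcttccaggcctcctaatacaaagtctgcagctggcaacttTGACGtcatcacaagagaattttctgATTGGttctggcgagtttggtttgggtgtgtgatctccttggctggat

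GGGGATTCC lay 125 bases before the start of H2-K1, 171 bases before that of H2-D1 and 133 bases before that of H2-Q7. Of all 32851 promoter windows of the same length, 82 (0.25%) held it on either strand, and of the 39 genes with a window it was found in 4 (H2-K1, H2-D1, H2-Q6 and H2-Q7). GAAANNGAA was found in 8.56% of all windows and in those of 4 of the 39, B2m, Erap1, H2-T22 and H2-T23; in B2m it read GAAACTGAA and lay 139 bases before the start. TGACG alone was frequent, in 20.8% of all windows and 15 of the 39, and so was ATTGG, in 37.4% and 33 of the 39. TGACG followed by ATTGG on the strand of the gene, with starts 24 to 26 bases apart, was found in 38 windows (0.116%), among them B2m, H2-K1, H2-D1, H2-Q7, H2-M3 and the class II gene H2-Aa; this spacing was chosen after the sequences had been seen. The Tap1 window held TGACG 86 bases before the start with no ATTGG at that spacing. The Tap1 and Psmb9 windows share 275 bases, since the genes start close together on opposite strands. These letter matches describe the sequence and do not show binding.

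Class I transcripts were abundant in the stem cells and class II transcripts were present at much lower levels. The summed level of the 24 class I heavy chains was 1638 ± 184 TPM in the uninduced libraries and 2007 ± 74.0 TPM in the induced libraries (SD, n = 3 each), against 88.1 ± 19.3 and 58.5 ± 10.8 TPM for the class II chains H2-Aa, H2-Ab1, H2-Eb1 and H2-Eb2. H2-K1 and H2-D1, the classical heavy chains, made up 71.2 ± 1.69% of the heavy-chain TPM in the uninduced libraries and 69.5 ± 2.14% in the induced libraries. B2m lay between 837 and 1037 TPM in all 6 libraries and was the most abundant of the genes in each library. Of the 46 genes, 13 were listed at 0 in every library: H2-M1, H2-M2, H2-M5, H2-M9, H2-M11, H2-M10.1 to H2-M10.6, H2-Q2 and the class II chain H2-Eb2. A further 4 (H2-Q1, H2-Q10, H2-T3 and H2-DMb2) reached at most 0.762 TPM in any library. The remaining 29 averaged 1 TPM or more and were tested. The plot of levels by library shows these 29 genes.

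**Figure D1:**
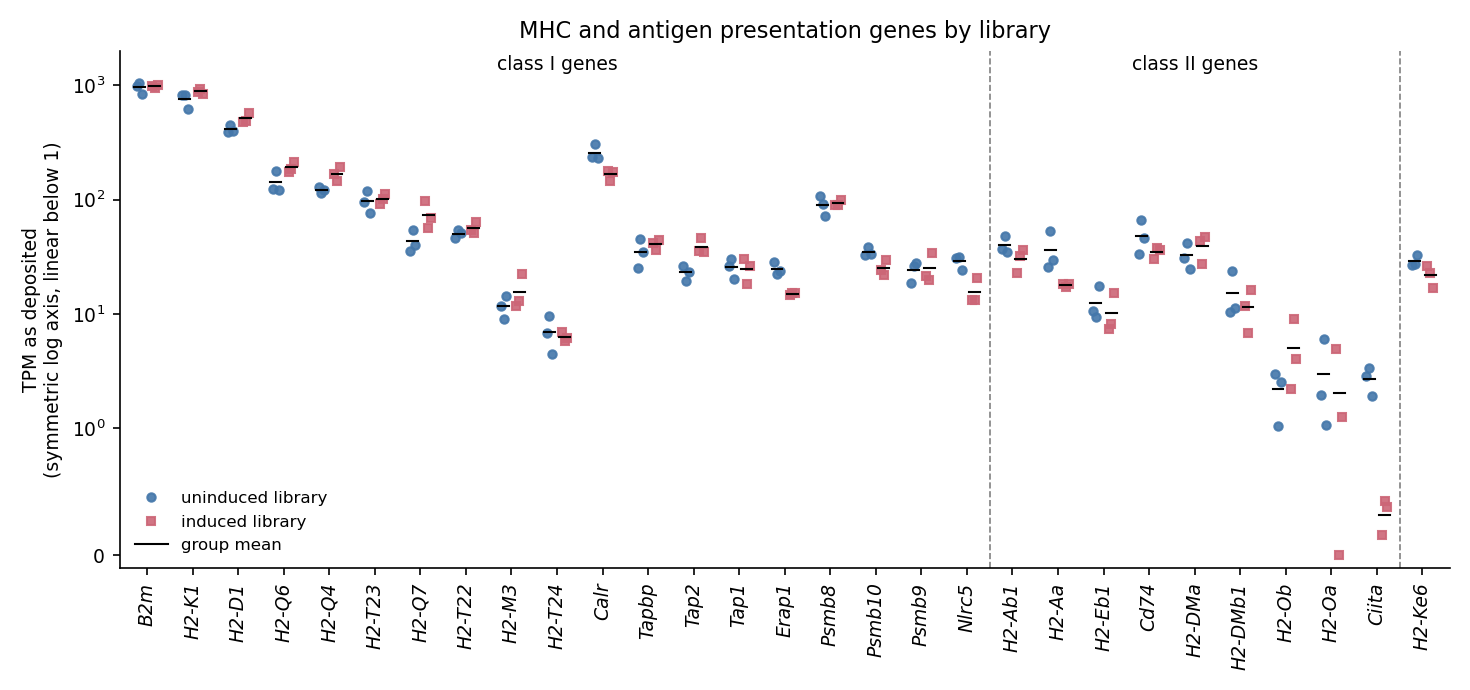
TPM of the 29 tested genes in each library, on a symmetric log axis that is linear below 1 TPM, with circles or squares for the libraries of the 2 groups and a black line for each group mean. B2m, H2-K1 and H2-D1 lie above all other genes, and Ciita is the gene whose induced libraries (0.158 to 0.426 TPM) lie farthest below the uninduced libraries (1.90 to 3.36 TPM).

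Because TPM is a share of all RNA, the scale matters for every change given below. Over the 13470 genes tested, the median log2 change from uninduced to induced libraries was -0.35, and protein-coding genes held 26.6 to 32.9% of the TPM of the uninduced libraries and 20.5 to 23.2% of that of the induced libraries. Changes are therefore given on the deposited scale and after median-of-ratios scaling, which divides each library by its median ratio to the geometric mean library and brings the median log2 change to 0.0033. The scaling assumes that the typical gene did not change, which these files cannot test. On the deposited scale 11.5% of all tested genes passed an adjusted p of 0.05 (limma with Benjamini-Hochberg adjustment), 1.29% higher and 10.2% lower. After scaling 5.98% passed, 2.88% higher and 3.1% lower. All 10 stem cell markers examined were detected in both groups (summed level 630.3 to 841 TPM uninduced and 679 to 760 TPM induced), and Cd79a, Ms4a1, Pax5, Ebf1, Itgax, Batf3, Xcr1, Siglech and Cd209a, which mark B cells, dendritic cells and macrophages, were listed at 0 in all 6 libraries, while others, among them Cd79b, Zbtb46 and C1qb, were detected at low levels.

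On the deposited scale a single gene of the 29 passed the test, Calr, which was lower after induction; 11 of the 29 had an unadjusted p under 0.05, beside 27.9% of all genes tested. The induced and uninduced libraries did not overlap for 12 of the 29 genes, 5 of them higher (H2-K1, H2-D1, H2-Q4, H2-Q7 and Tap2) and 7 lower (Calr, Erap1, Psmb10, Nlrc5, H2-Aa, Ciita and H2-Ke6), while 33.1% of all tested genes did not overlap, 4.83% higher and 28.2% lower. The median log2 change of the 29 genes was 0.03, against -0.35 over all genes tested. After median-of-ratios scaling 7 of the 29 rose and none fell: B2m, H2-K1, H2-D1, H2-Q4, H2-Q6, H2-Q7 and Tap2. At an unadjusted p under 0.05 there were 14 on that scale, beside 21.8% of all genes tested, and the median log2 change was 0.42. The groups did not overlap for 12 higher and 3 lower genes of the 29 after scaling, beside 27.9% of all tested genes, 13.6% higher and 14.3% lower. All 7 belong to the class I pathway. The plot of changes by role sets both scales side by side.

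**Figure D2:**
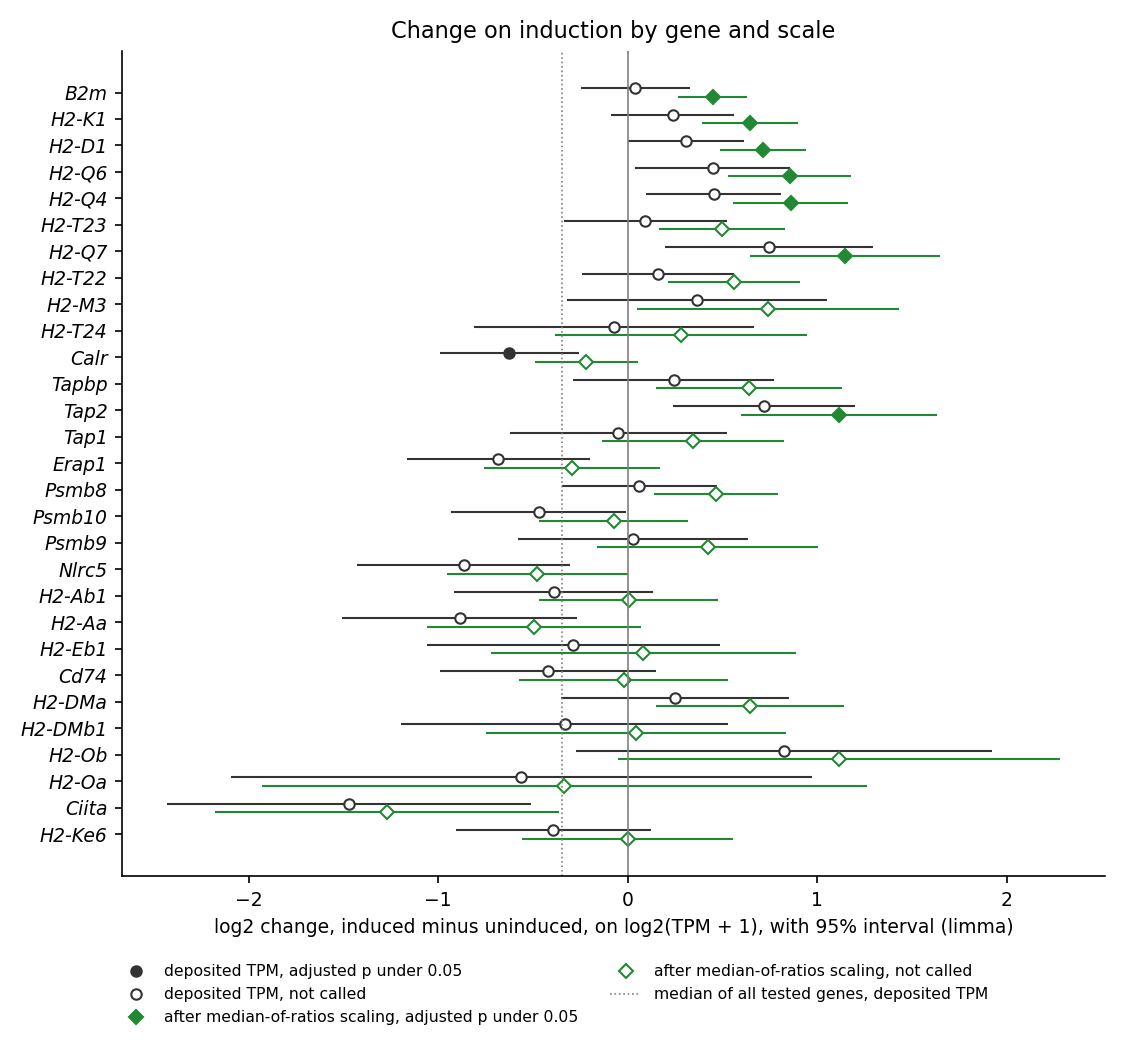
Log2 change from uninduced to induced libraries on log2(TPM + 1) for each tested gene, with the 95% interval from limma, on the deposited scale and after median-of-ratios scaling; filled symbols passed an adjusted p of 0.05 and the dotted line is the median of all tested genes on the deposited scale. On the deposited scale only Calr is filled, and after scaling 7 class I pathway genes are filled on the right side of 0.

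The classical heavy chains were higher relative to other genes after induction. H2-K1 (ENSMUSG00000061232, GRCm38 chr17:33996017-34000347) stood at 826, 816 and 618 TPM uninduced and 875, 928 and 843 TPM induced. All 3 induced libraries were above the highest uninduced library, which held on both scales. The log2 change of H2-K1 was 0.24 (SE 0.15, adjusted p = 0.322) on the deposited scale, and it rose by 0.65 (SE 0.11, adjusted p = 0.0141), or 1.57-fold, after scaling. H2-D1 (ENSMUSG00000073411, chr17:35262730-35267499) stood at 392, 453 and 394 TPM uninduced and 478, 489 and 568 TPM induced, again without overlap. Its log2 change was 0.31 (SE 0.14, adjusted p = 0.176) as deposited and 0.72 (adjusted p = 0.00594), a 1.64-fold rise, after scaling. The call for H2-D1 after scaling held without each of the 6 libraries in turn (adjusted p 0.0218 to 0.0387), while that for H2-K1 was lost without uninduced replicate 3, induced replicate 1 or induced replicate 2 (adjusted p up to 0.0644).

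The light chain gene B2m (ENSMUSG00000060802, chr2:122147686-122153083) was the most abundant gene of the set, at 988, 1037 and 837 TPM uninduced and 988, 938 and 1009 TPM induced. The groups overlapped on the deposited scale (log2 change 0.04, SE 0.13, adjusted p = 0.868). After scaling B2m stood at 838, 830.3 and 806 in the uninduced libraries and at 1132, 1157 and 1090.2 in the induced libraries, and it rose by 0.45 on the log2 scale (adjusted p = 0.0157). That call was lost without uninduced replicate 3 or any of the induced replicates (adjusted p up to 0.0734). The ratio of H2-K1 to B2m within a library does not depend on the scale; it was 0.835, 0.787 and 0.738 in the uninduced libraries and 0.886, 0.989 and 0.836 in the induced libraries. The ratio of H2-D1 to B2m was 0.397, 0.437 and 0.470 uninduced and 0.484, 0.521 and 0.564 induced. Neither ratio overlapped between the groups, and on the log scale the mean was 1.15-fold higher for H2-K1 and 1.20-fold higher for H2-D1. An exact two-sided permutation test gave p = 0.1 for each, the smallest that 3 libraries against 3 allow, and 0.2 after adjustment over the 8 ratios examined. The ratio of H2-K1 to H2-D1 overlapped (exact p = 0.7).

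Of the nonclassical heavy chains of the Q region, which encode less polymorphic class I molecules, the 3 tested (H2-Q4, H2-Q6 and H2-Q7) also had higher means in the induced libraries. H2-Q4 stood at 129.7, 115 and 121 TPM in the uninduced libraries and 167, 145 and 193 TPM in the induced libraries, with no overlap. Its log2 change was 0.45 (SE 0.16, adjusted p = 0.0954) as deposited, and after scaling it rose 1.82-fold (log2 0.86, adjusted p = 0.01), a call that held without each library in turn (adjusted p up to 0.0493). H2-Q7 stood at 35.1, 54.6 and 40.0 TPM uninduced and 96.3, 56.2 and 68.8 TPM induced. The lowest induced and the highest uninduced library lay close together. The log2 change of H2-Q7 was 0.75 (SE 0.25, adjusted p = 0.0792) as deposited and 1.15 (adjusted p = 0.0202), a 2.27-fold rise, after scaling; the latter call was lost without uninduced replicate 1, uninduced replicate 3, induced replicate 1 or induced replicate 3 (adjusted p up to 0.07). H2-Q6 stood at 124, 177 and 122 TPM uninduced and 173, 185 and 214 TPM induced. Its groups overlapped through uninduced replicate 2 as deposited (log2 change 0.45, adjusted p = 0.145), and after scaling it rose by 0.85 (adjusted p = 0.0132), a call lost without uninduced replicate 3, induced replicate 2 or induced replicate 3 (adjusted p up to 0.0609).

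Stretches that a heavy-chain gene shares with another gene can have their reads split by the counting. Of all 100-base windows of the annotated transcripts, 0.957% of those of H2-K1 and 3.59% of those of H2-D1 were also found in another gene, against 14.1% for H2-Q4, 13.0% for H2-Q6, 12.0% for H2-Q7 and 31.5% for H2-T22. H2-Q6 shared 8.36% of its windows with H2-Q7, and H2-Q7 shared 5.56% with H2-Q10. Most of the sharing of H2-T22 was with A930015D03Rik (24% of its windows) and most of that of H2-Q4 with Gm11131 (11.8%), neither of them among the 46 genes. The values of the Q genes and H2-T22 are therefore uncertain as single genes, and those of H2-K1, H2-D1 and B2m (0%) less so. How far the mice differ in sequence from the reference haplotype is unknown here.

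The 4 other tested heavy chains did not pass on either scale. H2-T23 encodes Qa-1, the ligand of the inhibitory NK receptor CD94-NKG2A, and stood at 94.2, 118 and 76.2 TPM uninduced and 92.1, 101 and 111 TPM induced (log2 change 0.09, adjusted p = 0.789, and 0.50, adjusted p = 0.0845, after scaling). H2-T22, a ligand of gamma-delta T cells, stood at 45.7, 54.2 and 51.1 TPM uninduced and 54.1, 51.3 and 64.1 TPM induced (0.16, adjusted p = 0.601, and 0.56, adjusted p = 0.0712, after scaling). For both genes the groups overlapped as deposited and were apart after scaling. H2-M3, which presents formylated peptides, lay between 8.95 and 22.2 TPM and H2-T24 between 4.48 and 9.50 TPM, with overlapping groups. The log2 change of H2-M3 was 0.37 (adjusted p = 0.473) as deposited and 0.74 (adjusted p = 0.2) after scaling, and that of H2-T24 was -0.07 (adjusted p = 0.909) and 0.28 (adjusted p = 0.636). All 9 tested heavy chains had a log2 change above the median of all genes tested. Their median log2 change was 0.31 as deposited, with 0 of 9 called at an adjusted p of 0.05 in limma (4 at an unadjusted p under 0.05, beside 27.9% of all genes tested), and 0.72 after scaling, with 5 of 9 called higher beside 2.88% of all genes tested.

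Among the genes that supply and load class I peptides, Tap2 had a higher mean and Calr and Erap1 a lower mean in the induced libraries on the deposited scale. Tap2 (ENSMUSG00000024339, chr17:34203527-34216321), the second subunit of the peptide transporter, stood at 26.3, 19.4 and 23.4 TPM uninduced and 35.7, 45.6 and 34.6 TPM induced, without overlap. Its log2 change was 0.72 (SE 0.22, adjusted p = 0.0582) as deposited and 1.12 (adjusted p = 0.0251), a 2.23-fold rise, after scaling, a call lost when any of the 6 libraries was left out (adjusted p 0.0593 to 0.0946). Its partner Tap1 stood at 26.1, 30.3 and 20.1 TPM uninduced and 29.9, 18.2 and 26.2 TPM induced, with overlap on both scales (log2 change -0.05, adjusted p = 0.923, and 0.34, adjusted p = 0.397, after scaling). Tapbp, the tapasin that bridges transporter and heavy chain, stood at 25.1, 45.0 and 34.9 TPM uninduced and 41.7, 36.3 and 43.9 TPM induced (0.24, adjusted p = 0.543, and 0.64, adjusted p = 0.125, after scaling).

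Calr (ENSMUSG00000003814, chr8:84841850-84846934), a calcium-binding chaperone of the endoplasmic reticulum, stood at 236, 305 and 232 TPM uninduced and 179, 146 and 174 TPM induced. All induced libraries were below all uninduced libraries, and Calr fell by 0.62 on the log2 scale (SE 0.16, adjusted p = 0.0387). After scaling its groups overlapped and the log2 change was -0.22 (adjusted p = 0.345), and as deposited the call was lost when any of the 6 libraries was left out (adjusted p 0.0504 to 0.14). Erap1, the aminopeptidase that trims class I peptides, stood at 28.2, 22.2 and 23.7 TPM uninduced and 14.5, 15.3 and 15.1 TPM induced. Erap1 did not overlap between the groups as deposited (log2 change -0.68, SE 0.22, adjusted p = 0.0705), and overlapped after scaling (-0.29, adjusted p = 0.463). It shares 10.0% of its windows with another gene, mainly its neighbour Cast.

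The immunoproteasome subunits Psmb8, Psmb9 and Psmb10 replace Psmb5, Psmb6 and Psmb7 in proteasomes made under interferon and in many blood cells. Psmb8 stood at 106, 92.2 and 71.9 TPM uninduced and 90.0, 90.2 and 98.9 TPM induced (log2 change 0.06, adjusted p = 0.856; after scaling 0.47, adjusted p = 0.096, without overlap). Psmb9 stood at 18.5, 26.2 and 28.0 TPM uninduced and 21.3, 19.8 and 34.3 TPM induced (0.03, adjusted p = 0.955; after scaling 0.42, adjusted p = 0.392), and Psmb10 at 32.7, 38.3 and 33.6 TPM uninduced and 24.1, 21.7 and 29.4 TPM induced (-0.47, adjusted p = 0.173; after scaling -0.07, adjusted p = 0.856). None of the 3 passed in limma on either scale. On each scale 1 of 3 had an unadjusted p under 0.05, beside 27.9% of all genes tested as deposited and 21.8% after scaling. Their constitutive counterparts fell on the deposited scale in 2 of 3 cases, beside 10.2% of all genes tested. Psmb5 stood at 22.5, 35.8 and 39.6 TPM uninduced and 7.62, 12.7 and 13.9 TPM induced, and fell by 1.44 on the log2 scale (adjusted p = 0.0163; after scaling -1.05, adjusted p = 0.0853); the call was lost without uninduced replicate 2 or 3 or induced replicate 1 or 2 (adjusted p up to 0.0724). Psmb6 stood at 119, 112 and 113 TPM uninduced and 51.3, 49.7 and 61.1 TPM induced, and fell on both scales (log2 change -1.08, adjusted p = 0.0045, and -0.68, adjusted p = 0.0251, after scaling). The first call of Psmb6 held without each library in turn, and that after scaling held only without uninduced replicate 2 (adjusted p up to 0.0846). The log2 change of Psmb7 was -0.22 (adjusted p = 0.609) as deposited and 0.17 (adjusted p = 0.681) after scaling.

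The balance of the paired subunits, which no scaling alters, was compared within each library. Psmb8 divided by Psmb5 was 4.72, 2.58 and 1.82 in the uninduced libraries and 11.8, 7.10 and 7.11 in the induced libraries, a mean ratio 3.00-fold higher on the log scale. Psmb9 divided by Psmb6 was 0.154, 0.233 and 0.249 uninduced and 0.416, 0.398 and 0.561 induced, 2.18-fold higher. Both ratios kept the groups apart, at the smallest exact permutation p of 0.1 (0.2 after adjustment over 8 ratios), and the third, Psmb10 divided by Psmb7, overlapped (exact p = 0.5). In both of the separated pairs the constitutive subunit fell on the deposited scale and the immunoproteasome subunit did not pass the test.

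**Figure D3:**
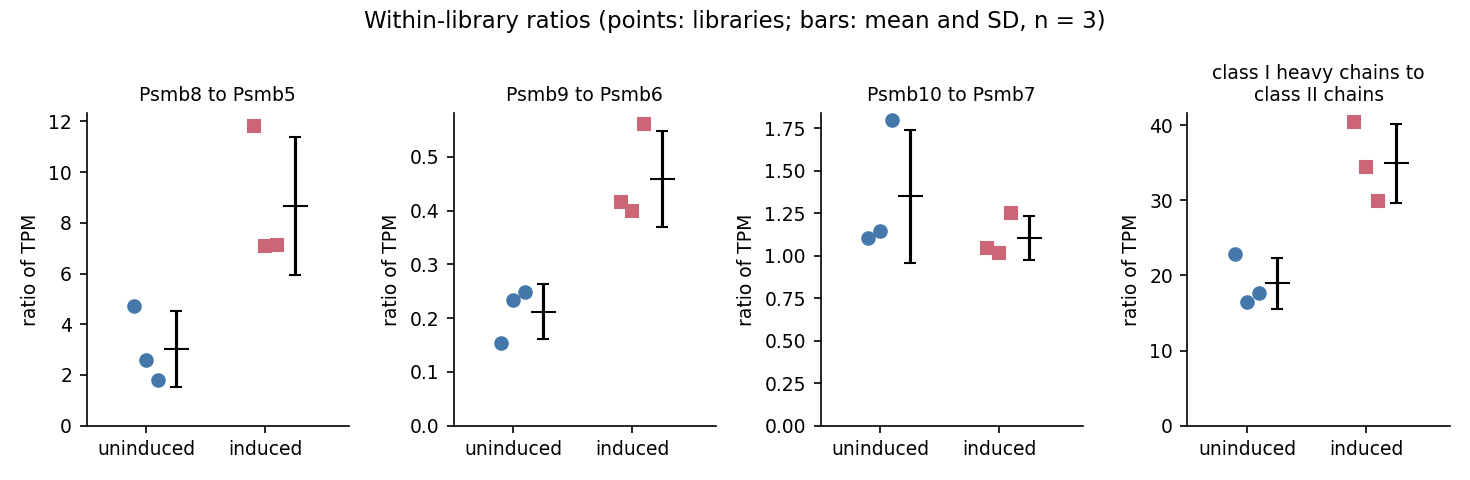
Ratios of TPM within each library for the 3 proteasome subunit pairs and for summed class I heavy chains against summed class II chains; points are libraries and bars are the mean and SD of 3 libraries per group. Psmb8 to Psmb5 lies at 7.10 to 11.8 in the induced libraries and at 1.82 to 4.72 in the uninduced libraries, and the ratio of class I to class II lies at 29.9 to 40.4 against 16.5 to 22.8.

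Both transactivators were lower in the induced libraries without passing the test. Nlrc5 (ENSMUSG00000074151, chr8:94434356-94527272) stood at 30.8, 31.6 and 24.2 TPM uninduced and 13.1, 13.2 and 20.6 TPM induced. No induced library reached the lowest uninduced library on either scale, though after scaling the closest pair was 22.3 against 23.3. The log2 change of Nlrc5 was -0.86 (95% interval -1.43 to -0.30, adjusted p = 0.0531) as deposited and -0.48 (adjusted p = 0.232) after scaling; without induced replicate 3 it passed as deposited (-1.07, adjusted p = 0.0474). Ciita (ENSMUSG00000022504, chr16:10480059-10528418) stood at 2.83, 3.36 and 1.90 TPM uninduced and 0.158, 0.426 and 0.377 TPM induced. The uninduced mean was 8.42-fold the induced mean in TPM, with no overlap on either scale. Its log2 change was -1.47 (95% interval -2.43 to -0.51, adjusted p = 0.054) as deposited and -1.27 (adjusted p = 0.104) after scaling. Ciita passed the filter on low values only through the uninduced libraries, where it is high, so its values are a description and its p-values support nothing.

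**Figure D4:**
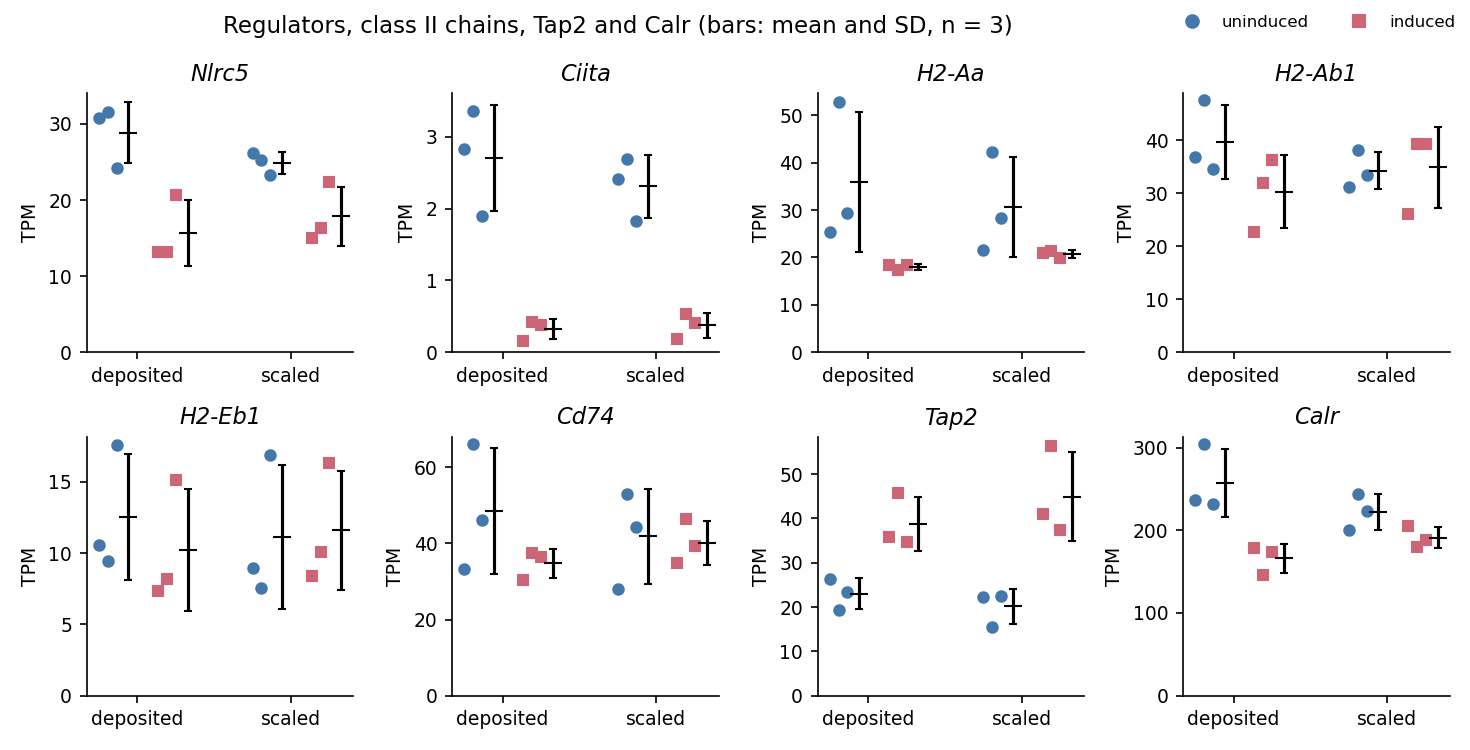
TPM in each library, as deposited and after median-of-ratios scaling, for the transactivators Nlrc5 and Ciita, the class II genes H2-Aa, H2-Ab1, H2-Eb1 and Cd74, Tap2 and Calr; bars are the mean and SD of 3 libraries per group. Ciita (0.158 to 0.426 TPM induced) and Nlrc5 lie below the uninduced libraries on both scales, while Calr is apart on the deposited scale only.

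No class II gene of the 9 tested passed on either scale (limma), with 2 of 9 at an unadjusted p under 0.05 on each scale (27.9% of all genes tested as deposited and 21.8% after scaling). One of them on each scale is Ciita, whose p-values support nothing, and the other is H2-Aa as deposited and H2-DMa after scaling. Their median log2 change was -0.39 as deposited, close to the -0.35 of all genes tested, and 0.01 after scaling. H2-Aa (ENSMUSG00000036594, chr17:34282744-34287823), the I-A alpha chain, stood at 25.5, 52.8 and 29.4 TPM uninduced and 18.3, 17.3 and 18.4 TPM induced. The induced libraries were all lower, and uninduced replicate 2 was highest (log2 change -0.89, SE 0.28, adjusted p = 0.0675; after scaling -0.49, adjusted p = 0.293). Its partner H2-Ab1, the I-A beta chain, stood at 36.9, 47.6 and 34.7 TPM uninduced and 22.7, 31.9 and 36.4 TPM induced, with overlap (-0.39, adjusted p = 0.315; after scaling 0.0064, adjusted p = 0.991). The ratio of H2-Aa to H2-Ab1 overlapped between the groups (exact permutation p = 0.2). H2-Eb1, the I-E beta chain, stood at 10.5, 9.43 and 17.6 TPM uninduced and 7.33, 8.19 and 15.1 TPM induced, also with overlap (-0.29, adjusted p = 0.63; after scaling 0.083, adjusted p = 0.924).

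Cd74, the invariant chain that guards the class II groove on the way to the endosome, stood at 33.1, 66.1 and 46.2 TPM uninduced and 30.3, 37.6 and 36.3 TPM induced. The groups overlapped and the log2 change was -0.42 (adjusted p = 0.321; after scaling -0.02, adjusted p = 0.974). The ratio of Cd74 to H2-Ab1 overlapped between the groups (log2 difference -0.03, exact permutation p = 0.9). H2-DMa, a chain of the exchange factor that removes the last piece of Cd74, stood at 30.8, 41.7 and 24.8 TPM uninduced and 43.0, 27.2 and 46.7 TPM induced (0.25, adjusted p = 0.585). After scaling its groups did not overlap and its mean was 1.60-fold higher (log2 change 0.65, adjusted p = 0.125), the one class II gene that was higher without overlap. Its partner H2-DMb1 lay between 6.84 and 23.7 TPM (-0.33, adjusted p = 0.615; after scaling 0.044, adjusted p = 0.962) and shares 11.3% of its transcript windows with another gene, mainly H2-DMb2. H2-Oa and H2-Ob, which make up the inhibitor of H2-DM, were low, between 0 and 5.98 TPM and between 1.05 and 9.01 TPM. The log2 change of H2-Oa was -0.56 (adjusted p = 0.635) as deposited and -0.33 (adjusted p = 0.838) after scaling, and that of H2-Ob was 0.83 (adjusted p = 0.31) and 1.12 (adjusted p = 0.247). H2-Ke6, the enzyme gene of the region, lay between 16.9 and 32.4 TPM (-0.39, adjusted p = 0.303; after scaling 0.00064, adjusted p = 0.999) and shares 61.6% of its windows with an overlapping annotated gene.

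Set against each other, class I heavy chains were higher and class II chains lower in the induced libraries on the deposited scale. The summed heavy-chain level was 1665, 1808 and 1442 TPM uninduced and 1955, 1974 and 2092 TPM induced, 1.22-fold higher in mean and without overlap (1.63-fold after scaling). The summed class II chains stood at 72.9, 109.9 and 81.7 TPM uninduced and 48.4, 57.4 and 69.8 TPM induced, a ratio of means of 0.664. After scaling the class II sums overlapped, with a ratio of 0.884. Class I divided by class II within a library, which needs no scaling, was 22.8, 16.5 and 17.7 in the uninduced libraries and 40.4, 34.4 and 29.9 in the induced libraries. This ratio was 1.84-fold higher in mean (19.0 ± 3.40 against 34.9 ± 5.24, SD, n = 3) and did not overlap; no test was run on sums.

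Other genes of the pathway were counted in 7 lists holding 61 genes, of which 50 were tested. On the deposited scale 1 rose and 6 fell, with a median log2 change of -0.15, and after scaling 5 rose and 3 fell. The share lower as deposited is near that of all genes tested (10.2%), and the counts by list below are to be read beside it or, after scaling, beside 2.88% higher and 3.1% lower. Of the 7 calls as deposited and the 8 after scaling, 4 were shared (Psmb6, Canx, Hspa5 and Cd274). Among endoplasmic reticulum folding genes 3 of 9 fell as deposited and 2 of 9 after scaling. Hspa5, the chaperone BiP, stood at 207, 238 and 167 TPM uninduced and 91.6, 84.0 and 89.7 TPM induced (log2 change -1.18, adjusted p = 0.004; after scaling -0.78, adjusted p = 0.0102), and both calls held without each library in turn. Canx, the calnexin that holds free class I heavy chains, stood at 139, 149 and 118 TPM uninduced and 71.3, 63.6 and 79.6 TPM induced (-0.91, adjusted p = 0.0101; after scaling -0.51, adjusted p = 0.0451); the call as deposited was lost without induced replicate 2 (adjusted p = 0.0503), and that after scaling when any of the 6 libraries was left out (0.0914 to 0.13). Pdia3, the oxidoreductase of the peptide-loading complex, fell by 0.73 as deposited (adjusted p = 0.0243; after scaling adjusted p = 0.159), a call lost without uninduced replicate 1 or 2 or induced replicate 1 or 2 (adjusted p up to 0.0966). Among proteasome genes 3 of 7 fell as deposited (Psmb5, Psmb6 and the activator subunit Psme3, -1.07, adjusted p = 0.0153, lost without uninduced replicate 2, induced replicate 1 or induced replicate 2) and 1 of 7 after scaling.

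None of the 14 interferon and Jak-Stat genes passed limma's test on the deposited scale (2 at an unadjusted p under 0.05, beside 27.9% of all genes tested), and 4 rose after scaling, beside 2.88% of all genes tested: the interferon-gamma receptor chain Ifngr1 (log2 change 1.00, adjusted p = 0.0311), the kinases Jak1 (0.65, adjusted p = 0.0183) and Tyk2 (1.11, adjusted p = 0.0481), and the transcription factor Irf8 (1.74, adjusted p = 0.0459). The calls of Ifngr1, Tyk2 and Irf8 were lost when any of the 6 libraries was left out, and that of Jak1 without uninduced replicate 3 or any of the induced replicates (adjusted p up to 0.155 over the 4 genes). Irf8 was low, at 0.592, 2.38 and 2.99 TPM uninduced and 7.37, 7.02 and 5.42 TPM induced. Irf1, an interferon-induced transcription factor that acts at class I promoters, had a log2 change of 0.14 (adjusted p = 0.799) as deposited and 0.54 (adjusted p = 0.328) after scaling. None of the 9 promoter factor genes passed in limma on either scale (1 at an unadjusted p under 0.05 as deposited), Rfx5 included (0.58, adjusted p = 0.503; after scaling 0.93, adjusted p = 0.34). Of the costimulatory and NK ligand genes 4 of 9 were listed at 0 in every library and 2 of 9 were tested. Cd274, the inhibitory ligand PD-L1, stood at 14.4, 14.4 and 7.19 TPM uninduced and 25.5, 21.9 and 32.7 TPM induced, and rose on both scales (log2 change 1.13, adjusted p = 0.0413, and 1.52, adjusted p = 0.0132, after scaling). The call of Cd274 as deposited was lost when any of the 6 libraries was left out (adjusted p 0.071 to 0.137), and that after scaling without induced replicate 1 or induced replicate 3 (up to 0.0642). None of the 5 tested endosomal genes and none of the 4 tested class I-like genes outside the H2 names passed in limma, with 1 gene of each list at an unadjusted p under 0.05 as deposited.

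Markers of cells that carry class II molecules, and of other blood and stromal cells, were compared beside these genes; the Lin- gate is meant to remove mature blood cells. In bulk libraries fewer cells of a type and less RNA per cell cannot be told apart. The 7 B-cell markers summed to 4.21, 9.86 and 7.19 TPM uninduced and 3.85, 3.11 and 3.59 TPM induced, with 5 of 7 listed at 0 throughout. Nearly all of it was Cd79b, whose mean was 7.04 TPM uninduced and 3.52 TPM induced, lower without overlap as deposited and overlapping after scaling (adjusted p = 0.197 and 0.515 in limma). The 11 dendritic cell and macrophage markers summed to 2.05, 3.03 and 2.08 TPM uninduced and 6.09, 2.83 and 4.88 TPM induced, with 5 of 11 at 0. Within this list Zbtb46 was lower without overlap on both scales (mean 1.28 TPM uninduced and 0.153 TPM induced as deposited), and C1qb, listed at 0 in each uninduced library, stood at 0.489 to 1.24 TPM induced; both are under the filter and were not tested. The 7 T and NK cell markers summed to 6.21, 16.7 and 5.84 TPM uninduced and 0, 0.388 and 0.738 TPM induced, with 5 of 7 at 0. Nearly all of the uninduced sum was Nkg7, listed at 0 in each induced library, and the induced sum was Cd4. Nkg7 passed the filter only through the uninduced libraries. The 6 erythroid markers all rose, from a sum of 48.1 to 57.1 TPM uninduced to 400.4 to 463 TPM induced. The sums of the 6 granulocyte and monocyte markers (185.8 to 263 TPM over all libraries) and of the 6 endothelial and stromal markers (1.66 to 6.65 TPM) overlapped between the groups as deposited. As a single gene S100a9 was lower without overlap on that scale (66.9 to 85.2 TPM uninduced and 35.6 to 64.5 TPM induced). After scaling, 7 class I pathway genes rose. On that scale the granulocyte and monocyte sum was higher without overlap (194 to 211 uninduced and 229 to 273 induced) through Lyz2 alone. The dendritic cell and macrophage sum was also higher without overlap (1.74 to 2.43 uninduced and 3.50 to 6.98 induced). In induced replicate 1 C1qa held 5.74 of the 6.98, and that library was apart only through C1qa. C1qa, named after its values were seen, stood at 0.311 and 0.915 in the other induced libraries and 0 to 0.441 uninduced. Lyz2, named after its values were seen, rose by 0.85 on the log2 scale (adjusted p = 0.013), while the other 4 tested granulocyte and monocyte markers had negative log2 changes after scaling that did not pass (Mpo -0.74, Elane -0.82, S100a8 -0.16 and S100a9 -0.27). The stem cell marker sum was also higher without overlap after scaling (594 to 674 uninduced and 806 to 871 induced). The part of these cell types in the changes of the MHC genes was not tested.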

How the data were processed

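Total RNA of sorted stem cells was turned into stranded libraries with a kit for very low input and read as pairs of 100 bases on a NovaSeq, per the labels' protocols. The submitters' processing notes name bcl2fastq, HISAT2, StringTie, DESeq2 and the build GRCm38; their versions and the annotation release are not given in the sources used here. The authors deposited TPM values in a table with 1 column per library. The table's GC column, deposited in percent, was not used. TPM keeps no depth, so no counting interval is given. The 60496 rows, of which 5025 repeat a gene ID, were summed per ID to 55471 genes. The columns summed to between 999976 and 999993 TPM.

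Groups were taken from the library titles. The 13470 genes that averaged 1 TPM or more across the 6 libraries were tested two-sided by limma 3.58.1 (R 4.3.3, variance trend) on log2(TPM + 1), and p-values were adjusted by Benjamini-Hochberg over all of them. The + 1 understates changes of low genes. Fold changes after scaling are ratios of group means. The script was tested on simulated data. Within-library ratios were compared by exact permutation in scipy 1.17.1. Genes were named by rule: every member past the filter, and related genes that passed on either scale, with fixed others, among them Psmb5, Psmb6, Psmb7, Irf1 and Rfx5; some items are not reported here. The members, related genes and marker lists were chosen with earlier results of these data known. Gene positions are from GENCODE M21. Alternatives covered the pseudocount (0.1 or 5), the filter, the scaling, the variance trend, a replicate block, repeated rows and leaving out each library.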

Additional observations from a re-analysis of the deposited data

How the results depend on the processing

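The count of members called was 1 as reported, 0 without a filter on low values, 3 with a mean of at least 5 TPM (Calr, Tap2 and Nlrc5), 7 after median-of-ratios scaling, 9 after rescaling to protein-coding genes (with H2-T22 and H2-T23 added) and 0 to 1 without 1 library each. Without a variance trend it was 1, with Ciita, which entered the test only through the uninduced libraries, in place of Calr. For class I the counts were 0, 3, 7, 9 and 0 to 1 under the same settings and 0 without a trend, and for class II the count was 0 and became 1 without a trend. Deviations of same-numbered libraries were hardly correlated (0.0215, -0.0152 and 0.0172), which does not settle whether the replicate numbers of the titles pair them. With the replicate block 0 members and 0 class I members were called. After median-of-ratios scaling the 7 calls became 4 with the replicate block (H2-D1, H2-K1, H2-Q4 and H2-Q6) and 2 to 6 without 1 library each; these fits on scaled values were added after the data had been seen. Over all genes the 1549 calls became 752 without a filter, 806 after median-of-ratios scaling, 945 after rescaling, 767 without a trend, 902 with the replicate block and 573 to 1198 without 1 library each, and the 806 became 452 with the block and 292 to 398 without 1 library each. The 7 calls among related genes became 4 without a filter, 2 without a trend and 2 to 6 without 1 library each. The log2 ratio of the summed class I heavy chains moved from 0.30 to 0.71 (median-of-ratios) and 0.74 (rescaled), and that of the class II chains from -0.58 to -0.18 and -0.15. The cause of these moves was not tested.

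The direction turned after median-of-ratios scaling and after rescaling for Tap1 (0.34 and 0.37), H2-T24 (0.28 and 0.31), H2-Ab1 (0.0064 and 0.035), H2-Eb1 (0.083 and 0.11), H2-DMb1 (0.044 and 0.072) and H2-Ke6 (0.00064 and 0.029), and after rescaling for Cd74 (0.0079). Leaving out 1 library each turned the direction of B2m (range -0.050 to 0.10), Tap1 (-0.20 to 0.15), Psmb8 (-0.089 to 0.19), Psmb9 (-0.21 to 0.18), H2-T23 (-0.061 to 0.25), H2-T24 (-0.31 to 0.16), H2-DMb1 (-0.59 to 0.023) and H2-Oa (-1.22 to 0.061), and of the log2 ratios of H2-K1 to H2-D1 (-0.17 to 0.040) and Cd74 to H2-Ab1 (-0.23 to 0.088). Another pseudocount and the largest row per gene ID in place of the sum turned no direction of a member. TPM keeps no depth, so what depth limits is unknown.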
